A study of Mus musculus with 6 samples.

Results

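Of 46 ribosomal protein genes of the cytosol, the 34 whose brightest probe set gave a strong signal differed by at most 0.19 log2 units between the lungs of LC-HFD and LC-RD mice, while a single further strong probe set, of Rps15, passed the test. The genes were chosen by symbol, as every gene named Rpl or Rps followed by a number (with an optional a, x or l), Rplp0 to Rplp2, or Rpsa, that had at least 1 probe set annotated to it alone. This gave 46 genes of the 18193 genes with a probe set of their own, 24 for the large subunit and 22 for the small subunit. Together they had 100 of the 45037 probe sets tested. Each gene was read on its brightest probe set, the one with the highest mean over the 6 arrays, here called the main probe set.

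Whole-lung RNA from 3 mice of each group had been hybridized to 1 Affymetrix mouse genome array per mouse, and the question was how a high-fat diet (HFD) changes gene expression in lungs that form EGFR-driven tumors compared with a regular diet (RD). All 6 mice were CC10-rtTA/tet-O-EGFR-L858R males on a C57BL/6 background, and both groups received doxycycline (Dox), so there was no group without the transgene or without Dox. In these mice the CC10 promoter, active in club cells of the airway, drives a Dox-dependent activator that switches on human EGFR carrying the L858R change. The methods of the study give an age of 6 to 8 weeks. Its account of the design gives 6 weeks at the start, 2 weeks of HFD or RD and then 8 weeks of the same diet with Dox. The sample labels instead give a diet phase until 8 weeks and 7 weeks of Dox, with Dox at 625 ppm in food and at 2 mg/ml in drinking water, and they print this feeding text, which speaks of HFD alone, for both groups. HFD supplied 60% of energy from fat. The RNA did not come from sorted tumor cells. Values are log2 signals, and a difference is the mean of LC-HFD minus the mean of LC-RD, so 1.0 is a 2-fold change.

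Each ribosome joins a small subunit, which holds the messenger RNA and reads its codons, with a large subunit, which forms the peptide bonds. Most ribosomal proteins are made in equal numbers and placed on ribosomal RNA in the nucleolus. The genes of ribosomal proteins are among the most strongly transcribed in nearly every cell. Their messenger RNAs start with a C followed by a run of pyrimidines, the terminal oligopyrimidine (TOP) tract, through which the mTOR pathway sets their translation, so a change in ribosomal protein output need not show in the amount of messenger RNA that an array measures.

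Genomic sequence around annotated start sites is shown because a pyrimidine string there is a feature of some of these genes that the choice by symbol did not use. RefSeq sequences of 300 bases (250 before and 50 after the start, GRCm38.p6) matched 40 of the 46 genes. In the windows below, of 30 bases with the annotated start as the 16th base, capitals mark CTTTCC, a string of pyrimidines that starts with C. It begins at the annotated start itself in Rpl38 alone. In Rpl35, Rps10 and Rps27 the annotated start is also a C followed by a run of pyrimidines. In Rpl13a and Rpl39l the annotated start is a G, so these windows do not show a TOP tract at the first base. Rpl13a lies on the minus strand at chr7:45128731-45128760, Rpl35 on the minus strand at chr2:39005117-39005146, Rpl38 on the plus strand at chr11:114668565-114668594, Rpl39l on the plus strand at chr16:10170213-10170242, Rps10 on the minus strand at chr17:27635230-27635259, and Rps27 on the minus strand at chr3:90213634-90213663. All are written 5′ to 3′ on the strand of the gene.
Rpl13a: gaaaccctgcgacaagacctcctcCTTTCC
Rpl35: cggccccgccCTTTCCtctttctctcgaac
Rpl38: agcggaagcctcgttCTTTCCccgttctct
Rpl39l: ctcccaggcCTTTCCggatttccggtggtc
Rps10: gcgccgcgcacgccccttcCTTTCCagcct
Rps27: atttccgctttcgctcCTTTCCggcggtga

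From 10 bases before to 30 after the start, on the strand of the gene, CTTTCC was found in 7 of the 40 genes (17.5%) and in 2.06% of the 27025 genes with a sequence. Over the whole 300 bases and both strands, CTTTCC was found in 21 of the 40 (52.5%, against 29.3% of all genes). CTTCCG, the core letters that GABP and other ETS factors recognize, was found in 29 (72.5%, against 18.8%). TATAAA was found in 5 (12.5%, against 15.7%). The longer string CTCTTTCC, which contains CTTTCC, was found in 4 (10.0%, against 3.57%), and AAGATGGC, letters that YY1 recognizes, in 3 (7.5%, against 3.19%). These are matches of letters and say nothing of binding or of the groups compared here.

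Of the 46 genes, 3 passed the test (6.52%; limma, two-sided, Benjamini-Hochberg adjusted p under 0.05 over all probe sets), where 25.0% of all probe sets and 27.3% of all genes read on their brightest probe set did so. Rps16 was the 1 gene higher in LC-HFD (11.1% of all genes were), and Rpl27a and Rps25 were the 2 lower (16.2% of all genes were). Rpl27a alone also changed over 2-fold, as 1.68% of all genes and 1.73% of all probe sets did. The other 43 genes did not pass. An unadjusted limma p under 0.05 was found in 7 of the 46, beside 7668 of all 18193 genes and 17606 of all 45037 probe sets. The median difference of the 46 genes was -0.03, beside 0.02 over all genes and 0.04 over all probe sets, and 40 of them lay within 0.2 of 0. By subunit, 1 of 24 large subunit genes passed (median -0.01) and 2 of 22 small subunit genes did (median -0.05). In whole lung RNA, fewer cells of a type and less RNA per cell cannot be told apart.

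The count depends on how the spread is modeled. When limma let the variance follow the signal and discounted outlying variances, 13 of the 46 genes passed (28.3%), 4 higher and 9 lower, where 30.6% of all probe sets passed. Of the 10 genes this added, all but Rpl3l were strongly signaled genes with differences between -0.19 and 0.12. The sizes of the differences are the same in both models.

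**Figure D1:**
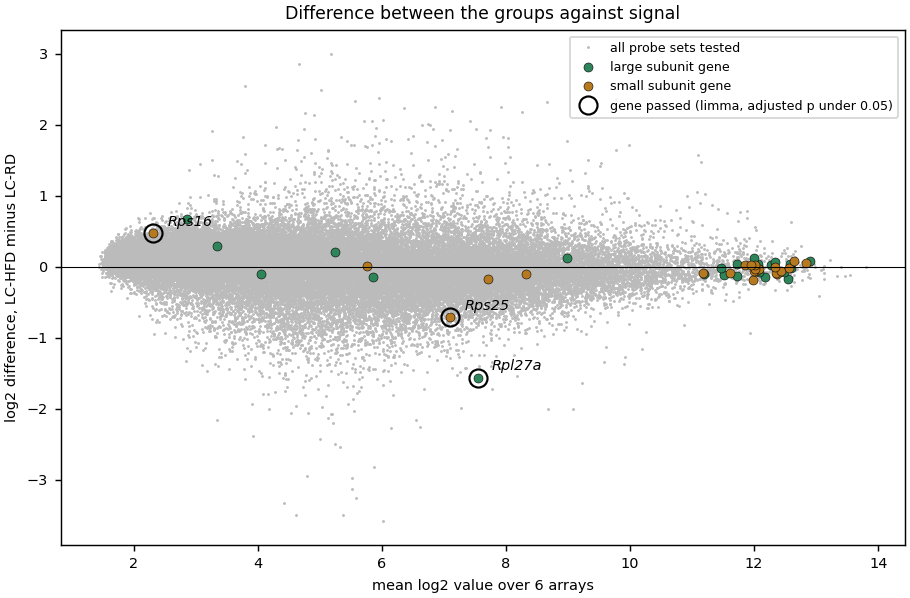
Log2 difference (LC-HFD minus LC-RD, y axis) against mean log2 value over 6 arrays (x axis) for all 45037 probe sets tested (gray) and the main probe sets of 24 large (green) and 22 small subunit genes (orange); rings mark genes with an adjusted p under 0.05. The 34 genes at 11 or more lie between -0.19 and 0.12, and the ringed Rpl27a, Rps25 and Rps16 all lie below a value of 9.

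The genes fell into 2 sets by signal, with none between 8.98 (Rpl37) and 11.2 (Rps27l), and a value of 11 was set after the values were seen to describe them. At 11 or more there were 34 genes, 17 of each subunit, and none passed in limma with default variance. Among all 524 probe sets at 11 or more, 16.8% passed in that fit, and among the 270 genes there 17.4% did. An unadjusted p under 0.05 in that fit was found in 2 of the 34 (Rps9 and Rpl37a), beside 82 of the 270 genes and 156 of the 524 probe sets. The methods' t-test (Benjamini-Hochberg) called 3 of the 34 genes (8.82%) and 32.4% of the 524 probe sets. Limma with the intensity trend called 9 of the 34 (26.5%), 2 higher and 7 lower, and 50.2% of the 524. The differences of the 34 genes ran from -0.19 to 0.12, with a median of -0.03 and a median size of 0.0635, beside a median size of 0.103 over all probe sets at 11 or more. All 95% intervals of these differences lay between -0.35 and 0.29, so a 2-fold change in signal lies outside each of them. Mice of a group differed little, with a median SD of 0.0258 for LC-HFD and 0.0285 for LC-RD. The highest value of any of them was 12.94, and whether differences of strong signals were compressed was not tested.

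**Figure D2:**
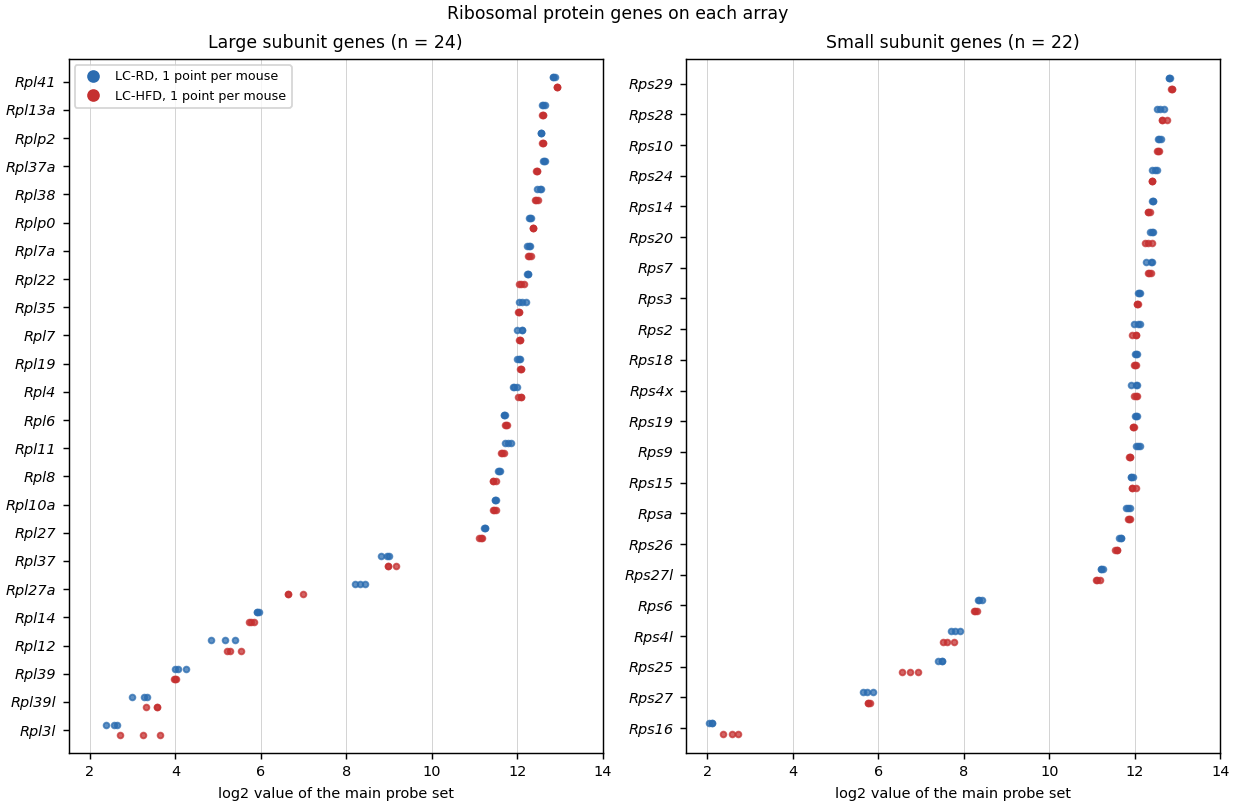
Log2 value of the main probe set (x axis) on each array for 24 large subunit genes (left) and 22 small subunit genes (right), with 1 point per mouse, blue for LC-RD and red for LC-HFD. The 34 genes at 11 or more show the groups within 0.2 of each other, and Rpl27a shows LC-HFD at 6.64 to 6.99 and LC-RD at 8.20 to 8.44.

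The groups did not overlap in 24 of the 46 genes (52.2%), 9 of them with LC-HFD higher and 15 with it lower, where 49.1% of all genes and 43.8% of all probe sets had groups that did not overlap. Among the 34 strongly signaled genes this was so in 18, 7 higher and 11 lower, beside 57.4% of all probe sets at that level. In Rplp2, for example, the groups were apart although their means differed by only 0.04.

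The stalk of the large subunit recruits the elongation factors, and its base protein Rplp0 is often used as a reference gene in quantitative PCR. Rplp0 was at 12.37, 12.37 and 12.37 in LC-HFD and at 12.31, 12.32 and 12.27 in LC-RD. The LC-HFD mice were all above the LC-RD mice, by 0.07 (SE 0.0665, 95% interval -0.09 to 0.23, limma adjusted p = 0.462). Its partner Rplp2 was at 12.60, 12.60 and 12.59 against 12.56, 12.56 and 12.54, a difference of 0.04 in the same direction (limma adjusted p = 0.677). Rpl12, which sits at the base of the stalk, was read at a low signal with overlapping groups, 5.22, 5.28 and 5.53 in LC-HFD and 5.17, 5.40 and 4.83 in LC-RD.

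Rpl11 belongs, with Rpl5 and the 5S ribosomal RNA, to the particle that binds Mdm2 when ribosome assembly is disturbed. Its values were 11.64, 11.63 and 11.68 in LC-HFD and 11.71, 11.77 and 11.85 in LC-RD. The groups did not overlap, but the difference of -0.13 did not pass (SE 0.0732, limma adjusted p = 0.231). Rpl5 had no probe set of its own here.

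Among other large subunit genes, Rpl4, whose protein lines the exit tunnel, had the largest positive difference of the main probe sets at a strong signal. Its values were 12.02, 12.08 and 12.08 in LC-HFD, all above those of LC-RD (11.94 ± 0.0510, SD, n = 3), with a difference of 0.12 (limma adjusted p = 0.251). Rpl37a, a zinc-binding protein, differed the other way, with 12.45, 12.47 and 12.44 against 12.64, 12.61 and 12.64. Its difference of -0.18 (SE 0.0660) had a limma adjusted p of 0.0930 and passed with the methods' t-test, with the intensity trend and with minimum mean values of 4 and 6. A second strong probe set of Rpl37a went the other way, with 12.26, 12.09 and 12.21 in LC-HFD all above 12.02, 12.04 and 12.04 in LC-RD (difference 0.15, limma adjusted p = 0.179). Rpl37, also a zinc-binding protein, had overlapping groups and a difference of 0.12. Rpl13a, a component that can also leave the ribosome to silence inflammatory transcripts, overlapped between the groups, from 12.57 to 12.60 in LC-HFD and from 12.57 to 12.64 in LC-RD. Rpl41, the smallest ribosomal protein, was at 12.93, 12.94 and 12.93 against 12.83, 12.83 and 12.89, a difference of 0.08 (limma adjusted p = 0.394).

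Of the small subunit genes, Rps9, whose protein helps set the accuracy of decoding, had the largest difference among main probe sets at a strong signal. It was at 11.88, 11.90 and 11.86 in LC-HFD and at 12.07, 12.12 and 12.02 in LC-RD. All LC-HFD mice were lower, by 0.19 (difference -0.19, SE 0.0690, 95% interval -0.35 to -0.03, limma adjusted p = 0.0821). Rps9 passed with the methods' t-test (adjusted p = 0.0263), with the intensity trend (0.000450) and with minimum mean values of 4 (0.0332) and 6 (0.0119). A second strong probe set of Rps9 gave 0.27 with overlapping groups, so its probe sets did not point one way.

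Rps6, the ribosomal substrate of the S6 kinases downstream of mTOR, was lower in all 3 LC-HFD mice, at 8.30, 8.27 and 8.22 against 8.34, 8.32 and 8.43. That difference of -0.10 did not pass (limma adjusted p = 0.330). Rps3, part of the entry channel for messenger RNA and also known in DNA repair, was at 12.06, 12.06 and 12.05 against 12.10, 12.12 and 12.07, a difference of -0.04. Rps14 and Rps19, known from inherited or acquired failure of red cell production, differed by -0.10 and -0.06. Rps14 was at 12.30, 12.36 and 12.30 in LC-HFD and at 12.44, 12.42 and 12.40 in LC-RD, with no overlap and no pass (limma adjusted p = 0.318). Rpsa, known also as the laminin receptor, had overlapping groups and a difference of 0.03. Rps4l, a paralog of Rps4x, overlapped as well, with a difference of -0.17 (limma adjusted p = 0.223).

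All 3 genes that passed were among the 12 genes with a main probe set under 11, whose differences ran from -1.56 to 0.68. That is 25.0% of the 12, beside 27.4% of all genes under 11. For 9 of these 12, other probe sets on the array are annotated to the gene together with further genes and were not counted here, so a low main signal says only what that probe set reads. Signals of different probe sets cannot be compared as amounts of RNA.

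Rpl27a, a protein of the large subunit, was at 6.99, 6.64 and 6.65 in LC-HFD and at 8.32, 8.44 and 8.20 in LC-RD. Every LC-HFD mouse lay more than 1 log2 unit below every LC-RD mouse. The difference was -1.56 (SE 0.119, 95% interval -1.84 to -1.28, limma adjusted p = 0.000428), or 2.95-fold lower. The only other probe set of Rpl27a went the other way, with 2.91, 3.10 and 2.82 in LC-HFD and 2.68, 2.61 and 2.60 in LC-RD (difference 0.32, limma adjusted p = 0.0427). The median of both gave -0.62.

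Rps25, a small subunit protein used by some viral messages to start translation, was at 6.93, 6.74 and 6.56 in LC-HFD and at 7.49, 7.48 and 7.39 in LC-RD. All LC-HFD values were lower, by 1.64-fold (difference -0.71, SE 0.106, 95% interval -0.96 to -0.46, limma adjusted p = 0.00418). Rps25 has 1 probe set of its own. Rpl27a and Rps25 passed in all 15 alternative fits of the probe sets.

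Rps16, a protein of the small subunit head, rose from a signal near the bottom of the scale. It was at 2.58, 2.35 and 2.72 in LC-HFD and at 2.10, 2.02 and 2.11 in LC-RD, where the median of an array was 4.79 to 4.84 and the lowest value 1.24. The difference was 0.47 (SE 0.106, limma adjusted p = 0.0180), and it did not pass with the methods' t-test, after quantile normalization or without LC-RD replicate 1 or 2 (adjusted p = 0.0635, 0.0532, 0.0603 and 0.0718). After quantile normalization the split was therefore 0 higher and 2 lower.

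The paralogs Rpl3l and Rpl39l, each tied to certain tissues, were read at low signal. Rpl3l, the paralog of Rpl3 used in heart and skeletal muscle, was at 3.25, 3.63 and 2.71 in LC-HFD and at 2.38, 2.56 and 2.63 in LC-RD. All LC-HFD values were higher, with a wide spread, and the difference of 0.68 did not pass (SE 0.216, limma adjusted p = 0.0588). It passed without LC-HFD replicate 3 (0.92, limma adjusted p = 0.00983), with array weights and with the intensity trend. Of 10 heart muscle markers, none rose and 4 fell, with a mean log2 value over the list of 4.24 to 4.38 in LC-HFD and 4.61 to 4.71 in LC-RD, and of 8 skeletal muscle markers 1 rose (Acta1, 0.37) and none fell, with overlapping means of 3.22 to 3.46 and 3.24 to 3.36. No marker was at a value of 0, and the part of these cells in the Rpl3l value was not tested.

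Rpl39l, the paralog of Rpl39 used in male germ cells, was at 3.57, 3.32 and 3.57 against 2.99, 3.27 and 3.33. The lowest LC-HFD value lay just under the highest LC-RD value, and the difference of 0.29 did not pass (limma adjusted p = 0.113). Of 8 germ cell markers 3 rose, among them the protamine genes Prm1 (0.83) and Prm2 (0.51), and the mean over the list was 3.69 to 3.93 in LC-HFD and 3.43 to 3.51 in LC-RD. Only Prm1 among the 8 was above a value of 5, and the part of such cells in the Rpl39l value was not tested. Rpl39 itself was at 3.99, 4.01 and 3.98 against 4.07, 4.24 and 3.99, with overlap. Rps27l, a p53-responsive paralog, was at 11.18, 11.09 and 11.12 against 11.20, 11.20 and 11.24 (difference -0.09), and its parent Rps27 overlapped (difference 0.01). Rpl3, Rpl10, Rpl10l, Rplp1, Rps15a and Rps27a had no probe set of their own here.

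Several probe sets read the same gene for 23 of the 46 genes, up to 6 each, and this allowed the differences to be compared within a gene. In 14 of the 23 the probe sets pointed both ways. The range of differences within a gene had a median of 0.252 and reached 1.88 in Rpl27a. Of all 100 probe sets 11 passed (6 higher, 5 lower), beside 25.0% of all probe sets. Of the 61 at 11 or more 1 passed (16.8% of all probe sets at that level did). Of the 15 from 6 to 11 4 passed (26.7%), all lower, and of the 24 under 6 6 passed (25.0%), 5 higher and 1 lower. Among all 44513 probe sets under 11, 25.1% passed, 5057 higher and 6105 lower. The median difference over all probe sets was -0.0646 at a mean of 6 or more and 0.0432 without that limit.

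**Figure D3:**
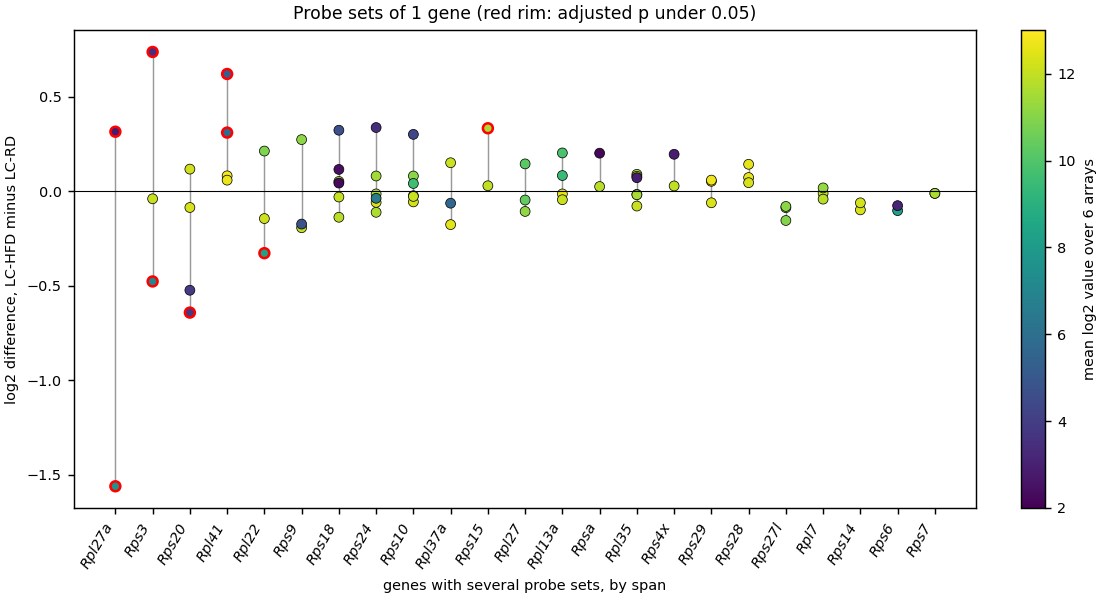
Log2 difference (LC-HFD minus LC-RD, y axis) of each probe set of the 23 genes with several probe sets, ordered along the x axis by the range within the gene; color gives the mean log2 value over 6 arrays and a red rim an adjusted p under 0.05. Rpl27a spans -1.56 to 0.32 and Rps3 -0.48 to 0.74, and most rimmed points have low values.

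Rps3 showed this most plainly after Rpl27a. Its strong probe set gave -0.04, while a second at 6.84, 6.78 and 6.99 in LC-HFD and 7.42, 7.35 and 7.27 in LC-RD gave -0.48 (limma adjusted p = 0.00854). The dimmest, at 3.94, 3.87 and 3.72 against 3.28, 3.05 and 2.99, gave 0.74 (limma adjusted p = 0.00361). One symbol thus held a difference of -0.04 that did not pass, a decrease and an increase.

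Rps20, of the small subunit head, had strong probe sets at -0.09 and 0.12, neither passing. A dim probe set at 3.32, 3.41 and 3.86 against 4.26, 4.19 and 4.07 fell by 0.64 (limma adjusted p = 0.0198), and another dim one gave -0.52 (limma adjusted p = 0.0738). Rpl41 had strong probe sets at 0.08 and 0.06 and dim ones that rose by 0.62 (5.66, 5.44 and 5.70 against 5.06, 4.91 and 4.97, limma adjusted p = 0.00444) and by 0.31 (limma adjusted p = 0.0397). Rpl22, which T cell development depends on, gave -0.14 on its main probe set, 0.21 on one at 10.99 ± 0.0247 against 10.77 ± 0.0252 (SD, n = 3, limma adjusted p = 0.0562), and -0.33 on the dimmest (limma adjusted p = 0.0250).

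The 1 strong probe set that passed belonged to Rps15, a protein near the decoding site, and Rps15 is named because it was singled out after its values were seen. It was at 11.72, 11.75 and 11.70 in LC-HFD and at 11.35, 11.43 and 11.39 in LC-RD, a difference of 0.33 (SE 0.0688, limma adjusted p = 0.0135). The brighter probe set of Rps15 was at 11.93, 12.02 and 11.93 against 11.92, 11.92 and 11.95, a difference of 0.03.

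The design of a probe set is coded in its suffix, where _x_at marks probes that may also bind other transcripts, _s_at probes shared by several transcripts and _a_at probes shared by transcripts of 1 gene. Of the 46 main probe sets 11 had _x_at, 2 _s_at, 17 _a_at and 16 no such suffix, and all 3 that passed were among the 16. Ribosomal protein genes have many processed pseudogenes, so signals of a gene and of its copies cannot be told apart by _x_at and _s_at probe sets. Another 110 probe sets carry a ribosomal protein symbol together with further genes and were not named. Of these, 17 passed (15.5%, 8 higher and 9 lower, beside 25.0% of all probe sets), with a median of -0.02. At 11 or more 5 of 75 passed (6.67%, beside 16.8%), 2 higher and 3 lower, with differences of all 75 between -0.33 and 0.34. Under 11, 12 of 35 passed (34.3%, beside 25.1% of all probe sets under 11), with differences between -1.50 and 1.46.

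Other genes of the ribosome were read from lists written by hand, each gene on its brightest probe set. Over all genes read in this way, 11.1% rose and 16.2% fell, and the counts of each list stand beside these shares. Of 101 genes for nucleolar assembly and RNA polymerase I, 12 rose, 16 fell and 73 did not pass (median -0.03). Rrs1, an assembly factor for the large subunit, was lower (difference -0.73, limma adjusted p = 0.00756), and so was Taf1b of the polymerase I selectivity factor (-0.64). Nol6 (0.74) and Taf1d (0.83), of small subunit assembly and of the same selectivity factor, were higher. Over all probe sets of the gene, differences ran from -0.73 to -0.44 for Rrs1, from 0.06 to 0.74 for Nol6 and from -0.04 to 1.59 for Taf1d. Centering each array on its median turned the split of the 101 genes to 16 higher and 14 lower.

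Of 19 other genes with a TOP tract, which encode elongation and initiation factors and related proteins, 2 rose and none fell (median 0.04). These were Eef2, the translocase, at 11.97 to 12.02 against 11.62 to 11.74 (0.31), and Eef1d, a subunit of the exchange factor (0.30). Of 10 host genes of small nucleolar RNAs, whose spliced RNAs also carry a TOP tract, Snhg12 (0.53), Snhg1 (0.40) and Zfas1 (0.37) rose, Snhg3 fell (-0.49) and 6 did not pass. The 5 probe sets of Snhg1 ran from 0.04 to 0.40.

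Of 76 genes for the mitochondrial ribosome, a separate particle that translates the mitochondrial genome, 3 rose, 20 fell and 53 did not pass (median -0.14). Mrps33 (-0.57), Mrpl47 (-0.54) and Mrpl3 (-0.48) were the largest decreases among them and Mrpl38 (0.50) the largest increase. Over all probe sets of the gene, differences ran from -0.54 to 0.17 for Mrpl47, from -0.71 to -0.21 for Mrpl3 and from -0.14 to 0.50 for Mrpl38. Of 23 regulators of ribosome production Myc (-0.53), Mdm2 (-0.36), Gabpa (-0.36) and Mycl (-0.27) fell, and Cdkn2a rose from a low signal (0.73). Of 4 ribosomal proteins and paralogs with other names, among them Fau (0.09) and Rpl22l1 (-0.18), none passed in limma. The lists share the 6 arrays and were not compared with each other by a test.

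**Figure D4:**
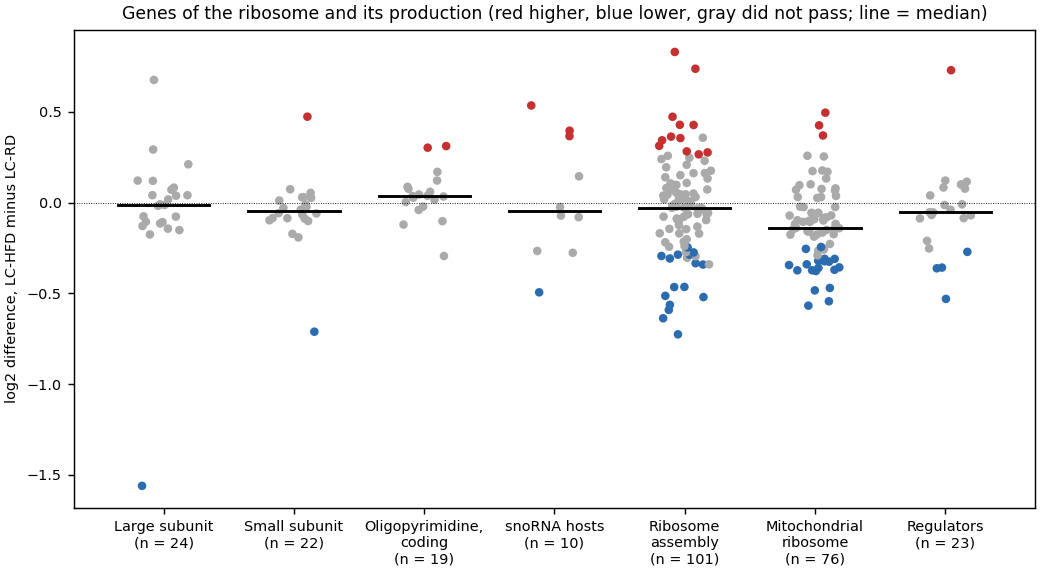
Log2 difference (LC-HFD minus LC-RD, y axis) of each measured gene on its brightest probe set in 7 lists (x axis), red for higher, blue for lower and gray for genes that did not pass, with the median as a line. The subunit medians lie at -0.01 and -0.05 and the mitochondrial ribosome at -0.14, with 20 blue and 3 red genes.

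The same 6 arrays differed in control probe sets, and these values stand beside the results above. The 3 probe sets for 18S ribosomal RNA, the RNA core of the small subunit, had means of 7.69, 7.57 and 7.57 in LC-HFD (7.61 ± 0.0693, SD, n = 3) and of 12.54, 12.53 and 12.51 in LC-RD (12.53 ± 0.0164, SD, n = 3). The difference was -4.92, with an exact permutation p of 0.1, the smallest that 3 against 3 allow (two-sided). The hybridization controls differed by 1.48 and the poly-A controls by -0.42 (exact permutation p = 0.1 for both). Among endogenous transcripts with control probe sets, Gapdh (mean of 3 probe sets) was higher in LC-HFD by 0.24 with no overlap (exact permutation p = 0.1). This is more than any of the 34 strongly signaled ribosomal protein genes differed on its main probe set. Other strong probe sets of Rps15 (0.33) and Rps9 (0.27) differed by more. Beta-actin differed by 0.03 (exact permutation p = 0.2). The 3′ minus 5′ signal, a measure of RNA integrity, differed by -0.08 with no overlap (exact permutation p = 0.1). It was 1.584 to 1.696 in LC-HFD and 1.703 to 1.761 in LC-RD. The median of the 46 ribosomal protein genes was at 11.97 to 11.99 on LC-HFD arrays and at 11.98 to 12.01 on LC-RD arrays. The same 3 genes passed when the 3′ minus 5′ signal was made a covariate, while 7.90% of all probe sets did. The part of labeling, hybridization and RNA content in the 18S difference was not tested.

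**Figure D5:**
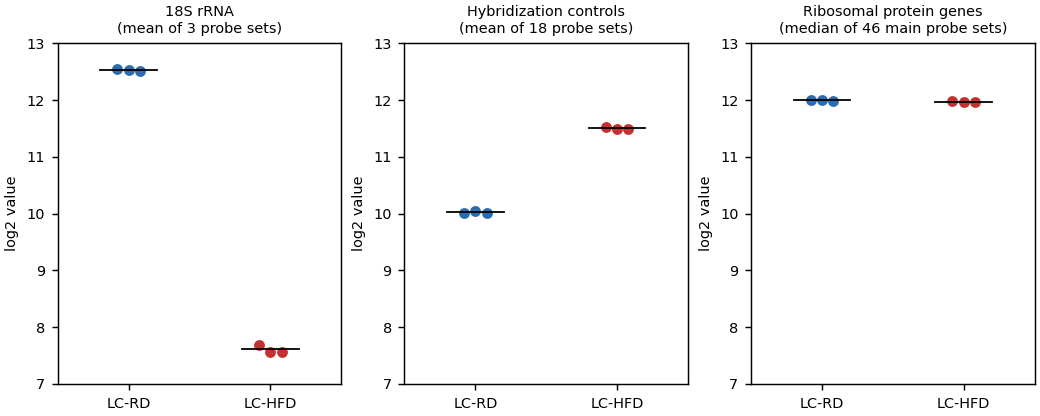
Log2 value (y axis, from 7 to 13) on each array, with 1 point per mouse and the group mean as a line, for 18S rRNA (left, mean of 3 probe sets), hybridization controls (middle, mean of 18) and ribosomal protein genes (right, median of 46 main probe sets). The 18S points lie near 7.61 in LC-HFD and 12.53 in LC-RD, while the medians of the ribosomal protein genes lie between 11.97 and 12.01 in both groups.

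Cell type markers place the samples as lung, with all 7 measured alveolar type II markers at 11 or more. Of these 1 rose and none fell (beside 11.1% and 16.2% of all genes), and of 5 club cell markers 1 rose and 3 fell. For other cells, the numbers that rose and fell were 3 and 0 of 7 for macrophages, 2 and 1 of 7 for B cells, 0 and 0 of 8 for T and NK cells, 0 and 2 of 6 for neutrophils and 0 and 1 of 5 for red cells. They were 0 and 2 of 6 for ciliated cells, 2 and 2 of 7 for vessel endothelium and 1 and 4 of 7 for fibroblasts. All cells carry ribosomes, and the part of cell composition in the values of the ribosomal protein genes was not tested.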

How the data were processed

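Each of 6 mice, 3 per group, gave lung RNA for 1 array. The authors deposited 1 table of log2 values, 1 per probe set and array, and the submitters' processing notes name GCRMA (background correction by probe sequence, normalization across arrays), version and settings not given in the sources used here. These values were not normalized again, and 0 columns of samples were left unused. All 6 arrays entered every fit unless stated. Leaving out 64 control probe sets, 45037 were tested with limma 3.58.1 in R 4.3.3 (two-sided, default settings, Benjamini-Hochberg over all). A probe set was named only where GEO's platform annotation gives exactly 1 gene (34945; 34754 symbols updated through RefSeq). Controls were compared with an exact permutation test over arrays. Replicates are separate mice per the methods, and 3 arrays a group limit the precision. Array medians were 4.79 to 4.84, and correlations were at least 0.993 within and at most 0.987 between groups.

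The genes, lists and tests were chosen with earlier results of these data known. Genes named are the 5 largest and 5 smallest differences, those over 2-fold, the 5 widest ranges over probe sets, named paralogs and genes of known roles, and up to 4 passing genes of each other list. Alternatives were the methods' t-test (unpaired), quantile normalization, centering of arrays on their median, array weights, a variance trend with intensity (robust), tests of probe sets with a mean of at least 4 or 6 alone, a replicate block, a 3′ minus 5′ covariate, other choices of probe set and each array left out. The steps were tested on simulated data. Motifs and figures used Python 3.11.15, pandas 2.3.3 and matplotlib 3.10.9.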

Additional observations from a re-analysis of the deposited data

Results flagged for a closer look

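Outside the ribosomal protein genes, the hybridization controls, RNAs added in fixed amounts before hybridization, were on average 1.48 log2 units higher on LC-HFD arrays than on LC-RD arrays, with no overlap, in probe sets that no comparison of genes uses.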

How the results depend on the processing

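Counts of 46 genes are small, so 1 gene moves them. Against 1 higher and 2 lower, the methods' t-test gave 4 lower (17.7% of all probe sets passed), the intensity trend 4 higher and 9 lower (30.6%), array weights 2 higher (27.9%) and quantile normalization 0 higher (23.3%). A minimum mean of 4 gave 0 higher and 4 lower of 43 genes (9.30%, beside 42.5% of all probe sets), and a minimum of 6 gave 0 and 5 of 39 (12.8%, beside 55.0%). Leaving out 1 array gave 0 (without LC-RD replicate 1 or 2) to 2 higher (without LC-HFD replicate 3), 2 lower each time, and a median difference from -0.0452 (without LC-RD replicate 3) to -0.0218. Median centering moved the median from -0.0263 to -0.00782. When a gene was read as the median of its probe sets, 2 were higher and 3 lower (29.2% of all genes passed), 0 over 2-fold, and the median over genes was 0.0292. Without _s_at and _x_at probe sets, 2 of 41 were higher. Of 431 values of 26 named genes under 17 alternatives, 395 kept direction and side of the threshold, 20 passed newly, 4 no longer passed and 12 changed sign. Only 1 of the 12 passed, Rpl22 on the median of its probe sets (0.214, limma adjusted p = 0.0351; also 0.214 without _s_at and _x_at probe sets). That median also turned Rpl37a (0.152), Rps9 (0.274) and Rpl13a (0.0798). The others lay near 0: Rps27 with array weights (-0.0352) and the 3′ minus 5′ covariate (-0.0130), Rpsa after quantile normalization (-0.0152), Rpl13a after median centering (0.00497), and with 1 array left out Rps27 (-0.0453 to 0.0745) and Rpl13a (-0.0291 to 0.00483).

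With the replicate number as a block, 1 gene was higher and 2 lower as without it, and 7906 probe sets passed in place of 11250. In their deviations from the group means, replicates of the same number correlated at -0.04, -0.09 and -0.03, so no pairing by number showed in the values. Whether mice of the same number were matched in other ways cannot be read from these values.

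Signal limits what can be read: 39 of the 100 probe sets had a mean under 11 and 24 under 6, and 40 carry the suffix _x_at.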
